A study of Homo sapiens with 12 samples.

Results

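The IFIT family of interferon-induced RNA binders was taken as the rows of the deposited gene table named IFIT1, IFIT2, IFIT3 and IFIT5, which gave 4 genes of the 60612 in the table. They were followed in polyadenylated RNA of LX2, a widely used human line derived from hepatic stellate cells, with 3 groups of 4 libraries, in a study concerned with mitochondrial DNA, the STING pathway and stellate cell activation. All cells were labelled wild type and, per the labels' protocols, were starved of serum for 16 h beginning 24 h after seeding. The STINGX+TGFb group received the compound STINGX, known here by its code name, at 10 µM for 3 h and then TGFb at 5 ng/ml, with a labelled time of 16 h. The TGFb group received TGFb at 5 ng/ml for 16 h without the compound. The control group was labelled untreated with the same time of 16 h. No group received STINGX without TGFb, so the compound is described only on a TGFb background, and all groups come from a single cell line.

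IFIT proteins are built almost entirely from tetratricopeptide repeats and bind RNA directly. IFIT1 recognises the start of messenger RNAs whose cap lacks ribose methylation and blocks their translation. IFIT3 binds IFIT1 and strengthens its hold on such RNA, IFIT2 joins them in a shared complex, and IFIT5 works alone on RNA that carries phosphate groups at its start. Their genes are among the classical targets of type I interferon, whose receptor activates the transcription factor complex ISGF3, which binds the interferon-stimulated response element (ISRE), and IRF3 can drive some of them directly downstream of nucleic acid sensors such as cGAS and STING.

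The 4 genes lie on the plus strand of chromosome 10 within 137.3 kilobases in GRCh38. In the deposited table IFIT2 occupied chr10:89283694-89309271, IFIT3 chr10:89327997-89340971, IFIT1 chr10:89392546-89406487 and IFIT5 chr10:89414568-89420997, and each was annotated as protein coding. The 250 bases before the annotated starts are shown because the response element is the feature through which the family is known to be regulated. RefSeq promoters of GRCh38.p14 were given for 3 of the 4 members, at 4 starts. The RefSeq start of IFIT1, 89392623, lies downstream of its start in the deposited table, so the end of the IFIT1 window lies within the deposited gene. Capitals mark every match to the ISRE core, searched as GAAA, any 2 bases and GAAA, which here reads on the minus strand, and every match to the TATA-type hexamer TATATA.
IFIT1, chr10:89392373-89392622, plus strand: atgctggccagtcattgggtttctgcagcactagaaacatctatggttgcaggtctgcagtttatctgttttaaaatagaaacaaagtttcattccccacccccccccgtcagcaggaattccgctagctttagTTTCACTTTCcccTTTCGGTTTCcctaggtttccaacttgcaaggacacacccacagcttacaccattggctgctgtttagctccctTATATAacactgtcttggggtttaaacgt
IFIT3 upstream start, chr10:89327747-89327996, plus strand: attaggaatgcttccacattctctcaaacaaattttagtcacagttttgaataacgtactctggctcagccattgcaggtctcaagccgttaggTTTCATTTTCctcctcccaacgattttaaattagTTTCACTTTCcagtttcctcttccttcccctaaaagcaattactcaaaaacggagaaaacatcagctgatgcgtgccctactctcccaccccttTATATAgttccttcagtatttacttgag
IFIT3 downstream start, chr10:89332279-89332528, plus strand: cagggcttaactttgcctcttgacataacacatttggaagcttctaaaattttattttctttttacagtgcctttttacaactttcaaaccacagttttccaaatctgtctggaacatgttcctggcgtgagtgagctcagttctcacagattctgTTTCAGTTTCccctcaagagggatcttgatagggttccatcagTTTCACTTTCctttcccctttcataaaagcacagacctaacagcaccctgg
IFIT5, chr10:89414318-89414567, plus strand: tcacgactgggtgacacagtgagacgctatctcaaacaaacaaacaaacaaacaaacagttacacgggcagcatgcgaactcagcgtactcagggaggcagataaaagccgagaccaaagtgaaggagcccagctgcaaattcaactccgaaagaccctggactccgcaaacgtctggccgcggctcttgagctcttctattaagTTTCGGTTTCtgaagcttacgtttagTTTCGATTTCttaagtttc

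Each of the 4 windows held 2 ISRE core matches. Among all 35116 promoter windows of the same length, searched on both strands, 3.02% held at least 1 such match and 79 windows (0.225%) held at least 2. The match TTTCACTTTC occurred in IFIT1 and in both IFIT3 windows, and TTTCGGTTTC occurred in both IFIT1 and IFIT5. The other IFIT5 match was TTTCGATTTC. In IFIT1 the matches began at positions -116 and -103 relative to the RefSeq start, with position -1 directly before it, and in IFIT5 they began at -45 and -19. At the upstream IFIT3 start they began at -156 and -122, and at the downstream start at -94 and -51. A TATATA match stood at -29 in IFIT1 and at -28 before the upstream IFIT3 start, and neither the IFIT5 window nor the downstream IFIT3 window held one. Against the start in the deposited table the ISRE matches of IFIT1 stand nearer, and its TATATA match lies inside the gene. That hexamer occurred in 3.73% of all windows. The gamma-activated core TTCNNNGAA, which occurred in 6.57% of all windows, was not found in any of the 4. These matches describe letters in the windows and are not measured binding sites.

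**Figure D1:**
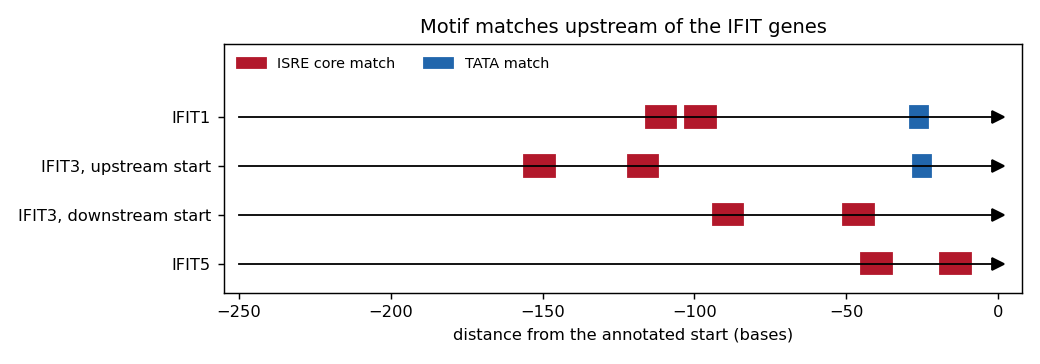
Motif matches in the 250 bases before each annotated start of IFIT1, IFIT3 and IFIT5, with distance from the start in bases on the x axis, red boxes for ISRE core matches and blue boxes for TATA-type matches. The 2 red boxes of IFIT5 begin at -45 and -19 and those of IFIT1 at -116 and -103. The RefSeq start used for IFIT1 lies downstream of its start in the deposited table. Only IFIT1 and the upstream IFIT3 start carry a blue box.

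Library totals ran from 54035320 to 70787741 estimated counts, and all 4 members passed the filter on low counts. The 10 stellate cell markers examined included 8 that were detected and 2, DES and LRAT, with a count of 0 in every library. Their summed level, in CPM (counts scaled by the library total times its TMM factor), was 5516 to 6017 in the STINGX+TGFb libraries, 12161 to 12488 in the TGFb libraries and 6906 to 6964 in the control libraries. Most of each sum was COL1A1, at means of 1644, 6367 and 2307 CPM in this order, and VIM, at 3006, 2985 and 2951 CPM. The stellate markers did not share a pattern, with COL3A1 at 183, 351 and 584 CPM and TAGLN at 241, 524 and 98.3 CPM. Of the markers of other liver cell types, the hepatocyte genes ALB, APOB and TTR and the leukocyte genes CD3E, MS4A1 and LILRA4 had a count of 0 in every library. The 11 leukocyte markers, of which 7 had a count in each group, though not the same 7, summed to 77.5 to 92.7 CPM with STINGX+TGFb, 32.3 to 37.9 CPM with TGFb and 74.5 to 83.0 CPM in control. Most of each sum was CD68, at means of 75.9, 24.4 and 59.6 CPM in this order. The others that reached 1 CPM had other patterns, CD14 at 2.30, 2.42 and 15.7, CSF1R at 3.47, 6.03 and 1.24 and ITGAM at 1.61, 1.91 and 1.52 CPM. The 7 endothelial markers summed to 11.1 to 13.8, 13.9 to 15.3 and 11.2 to 12.3 CPM in the same groups, the 5 cholangiocyte and epithelial markers to 29.4 to 30.7, 56.7 to 65.1 and 44.7 to 48.8 CPM, and the 8 hepatocyte markers to 3.84 to 4.02, 5.05 to 6.39 and 7.99 to 10.5 CPM. Only SERPINA1 of the hepatocyte markers, and KRT7 and SOX9 of the epithelial ones, reached a mean of 1 CPM. The part of these markers in the results on the IFIT genes was not tested.

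STINGX before TGFb was set against TGFb alone to ask what the compound changed in TGFb-treated cells. All 4 IFIT genes fell, IFIT1 by the most and IFIT5 by the least. IFIT1, the sensor of incompletely methylated caps, was at 1.58, 3.15, 1.76 and 2.30 CPM in the STINGX+TGFb libraries, against 29.8, 33.3, 30.2 and 30.4 CPM in the TGFb libraries. The groups were far apart, and every STINGX+TGFb library was below every TGFb library. IFIT1 was 14.0-fold lower, a log2 fold change of -3.81 ± 0.16 (SE, n = 4 each; edgeR quasi-likelihood test with Benjamini-Hochberg adjustment, adjusted p = 1.99e-09). On the log2(FPKM + 1) scale, which understates the change of low genes, the difference was -2.17.

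IFIT2, which binds IFIT3 and is also known to promote apoptosis when overproduced, was at 5.22, 4.94, 4.55 and 3.56 CPM in the STINGX+TGFb libraries, against 32.6, 33.5, 28.96 and 32.6 CPM in the TGFb libraries. Its groups did not overlap, and its log2 fold change was -2.80 ± 0.10 (6.97-fold lower, edgeR adjusted p = 5.98e-10). IFIT3, the partner that stabilises IFIT1, was at 17.7, 17.9, 16.6 and 15.3 CPM with STINGX+TGFb, against 81.2, 80.3, 74.8 and 79.8 CPM with TGFb. Every STINGX+TGFb library was below every TGFb library, and the log2 fold change was -2.23 ± 0.06 (4.68-fold lower, edgeR adjusted p = 5.57e-11). IFIT5 was at 17.0, 16.6, 19.3 and 18.1 CPM with STINGX+TGFb, against 27.1, 24.6, 22.1 and 23.7 CPM with TGFb. Its groups were also apart but near each other, the highest STINGX+TGFb library standing below the lowest TGFb library, and its log2 fold change was -0.46 ± 0.07 (1.37-fold lower, edgeR adjusted p = 0.000443).

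Of the 4 members 4 fell, where 13.8% of the 21328 genes tested fell in this comparison. All 4 also had groups that did not overlap in the lower direction, as did 15.7% of all genes. IFIT1, IFIT2 and IFIT3 fell at least 2-fold, as did 3.43% of genes, and IFIT5 did not. Ordered by log2 fold change with the lowest first, IFIT1 ranked 45, IFIT2 110, IFIT3 209 and IFIT5 3722 of 21328 genes. The median log2 fold change of the 4 members was -2.51, and that of all genes was 0.01. In bulk RNA, fewer cells expressing a gene and less RNA per cell cannot be told apart.

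**Figure D2:**
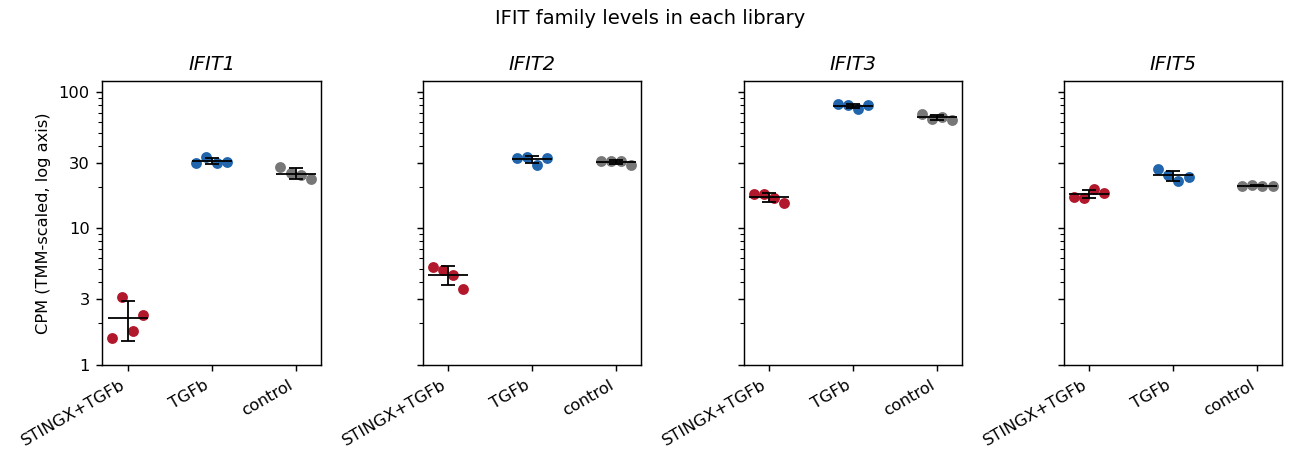
Level of each IFIT gene in each library, in CPM on a log axis, with 1 point per library and black bars for the mean ± SD of 4 libraries in the STINGX+TGFb, TGFb and control groups. IFIT1 stands at 1.58 to 3.15 CPM with STINGX+TGFb and at 22.8 to 33.3 CPM in the other 2 groups, whereas the IFIT5 libraries of all groups lie between 16.6 and 27.1 CPM.

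TGFb alone was set against control to ask what TGFb changed by itself. IFIT3 and IFIT5 rose slightly, and IFIT1 and IFIT2 did not pass the test. IFIT3 was at 81.2, 80.3, 74.8 and 79.8 CPM with TGFb, against 68.6, 63.3, 65.6 and 61.8 CPM in control. All TGFb libraries were above all control libraries, and the log2 fold change was 0.29 ± 0.06 (1.22-fold higher, edgeR adjusted p = 0.00239). IFIT5 was at 27.1, 24.6, 22.1 and 23.7 CPM with TGFb, against 20.4, 20.7, 20.5 and 20.5 CPM in control, with a log2 fold change of 0.25 ± 0.07 (1.19-fold higher, edgeR adjusted p = 0.0243). Its groups did not overlap either, but the call was lost when TGFb library 1, TGFb library 2, control library 1 or control library 3 was left out, with log2 fold changes of 0.19, 0.24, 0.24 and 0.24 in that order (adjusted p from 0.0507 to 0.0801). It was also lost when libraries were scaled by upper quartile (0.21, adjusted p = 0.0566) or by library size alone (0.18, adjusted p = 0.0852).

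IFIT1 was at 29.8, 33.3, 30.2 and 30.4 CPM with TGFb, against 28.2, 25.2, 24.4 and 22.8 CPM in control. These groups did not overlap, and the log2 fold change of 0.30 ± 0.12 had an adjusted p of 0.0957 in the edgeR test. It passed the threshold under limma-voom (adjusted p = 0.0315), in a fit of only these 8 libraries (adjusted p = 0.0288) and without STINGX+TGFb library 2 (log2 fold change 0.30, adjusted p = 0.0290). IFIT2 was at 32.6, 33.5, 28.96 and 32.6 CPM with TGFb, against 31.2, 31.3, 30.9 and 29.2 CPM in control. Its groups overlapped, and its log2 fold change of 0.06 ± 0.09 had an edgeR adjusted p of 0.683, with the sign turning under scaling by library size alone (-0.0048). Thus 2 of the 4 members rose, where 13.2% of all genes tested rose, and 3 had groups apart in the higher direction, as did 13.9% of genes. The median over the members was 0.27 and that over all genes -0.00 on the log2 scale.

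STINGX+TGFb was set against control to compare the doubly treated cells with untreated ones. All 4 members were lower than in untreated cells. The log2 fold changes were -3.51 ± 0.16 for IFIT1 (edgeR adjusted p = 4.34e-09), -2.74 ± 0.10 for IFIT2 (9.40e-10), -1.94 ± 0.06 for IFIT3 (2.99e-10) and -0.21 ± 0.07 for IFIT5 (0.0411). On average IFIT1 stood at 2.20 ± 0.707 CPM with STINGX+TGFb and 25.1 ± 2.26 CPM in control (SD, n = 4 each). IFIT2 averaged 4.57 ± 0.728 and 30.6 ± 1.01 CPM in the same order of groups, and IFIT3 16.9 ± 1.21 and 64.8 ± 2.98 CPM. Every STINGX+TGFb library of each member was below every control library, where 16.7% of all genes had groups apart in that direction and 17.0% fell. IFIT5 was at 16.6 to 19.3 CPM with STINGX+TGFb and at 20.4 to 20.7 CPM in control. Its call was lost in 9 of the 12 fits that left out 1 library, those without STINGX+TGFb library 1, 2 or 4, without TGFb library 2 or 4 and without any of the 4 control libraries (log2 fold change from -0.22 to -0.18 in these fits, adjusted p from 0.0525 to 0.115). It was also lost under scaling by library size alone (-0.13, adjusted p = 0.185). This comparison shares its STINGX+TGFb libraries with the first and its control libraries with the second.

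**Figure D3:**
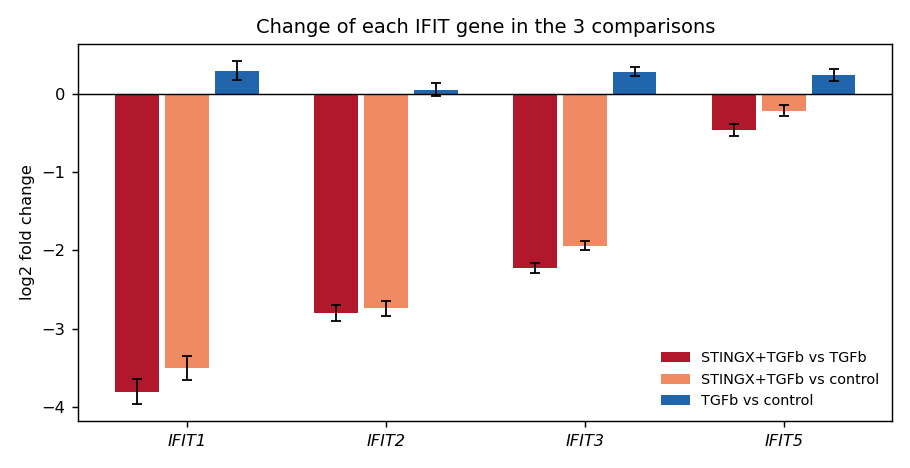
Log2 fold change of each IFIT gene in the 3 comparisons, with SE as error bars from the edgeR fit of 12 libraries. Both comparisons of STINGX+TGFb run from -3.81 and -3.51 in IFIT1 to -0.46 and -0.21 in IFIT5, and the bars of TGFb against control lie between 0.06 and 0.30.

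The order of the members within a group was compared by the deposited FPKM. These divide counts by a length for each gene, which was not given. The 2 annotated IFIT1 forms have 1880 and 4613 bases in GENCODE 29. The shorter took 94.0% of IFIT1 counts with STINGX+TGFb, 100% with TGFb and 99.2% in control. The place of IFIT1, and the shares of the family's FPKM, therefore depend on the length used. With STINGX+TGFb the mean levels were 5.88 FPKM for IFIT3, 3.90 for IFIT5, 0.986 for IFIT2 and 0.419 for IFIT1, and no ranges of neighbours in this order overlapped. With TGFb they were 25.01 FPKM for IFIT3, 6.28 for IFIT2, 5.39 for IFIT1 and 4.85 for IFIT5, and the ranges of IFIT2 and IFIT1, and of IFIT1 and IFIT5, overlapped. In control they were 21.4 FPKM for IFIT3, 6.29 for IFIT2, 4.56 for IFIT1 and 4.27 for IFIT5, and the ranges of IFIT1 and IFIT5 overlapped. On these values IFIT5 stood second in the STINGX+TGFb group and last in the other 2 groups. Its share of the family's summed FPKM was 34.9 ± 3.18% with STINGX+TGFb, 11.7 ± 0.651% with TGFb and 11.7 ± 0.518% in control (SD, n = 4 each). The share of IFIT1 was 3.75 ± 1.18%, 13.0 ± 0.674% and 12.5 ± 0.645% in the same groups.

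Ratios between members within a library, which no scaling between libraries can move, were compared by exact two-sided permutation tests for 6 pairs in 3 comparisons, with p-values adjusted over the 18 tests. The smallest p that 4 libraries against 4 allow is 0.0286, and the smallest adjusted p reached was 0.0343. The ratio of IFIT1 counts to IFIT5 counts was 0.0931, 0.190, 0.0913 and 0.127 in the STINGX+TGFb libraries, against 1.10, 1.36, 1.37 and 1.28 in the TGFb libraries. No STINGX+TGFb value came near a TGFb value, and the ratio was 10.6-fold lower (exact permutation test, adjusted p = 0.0343). The ratio of IFIT2 to IFIT3, the pair with the smallest shift, was 0.295, 0.276, 0.274 and 0.233 with STINGX+TGFb, against 0.401, 0.418, 0.387 and 0.408 with TGFb, and was 1.50-fold lower (exact permutation test, adjusted p = 0.0343). All 6 pairs changed in STINGX+TGFb against TGFb, and all 6 in STINGX+TGFb against control, each with groups apart and an adjusted p of 0.0343 (exact permutation test). The members thus fell unequally, with the groups apart in each pair. The 6 ratios come from 4 genes and are not independent. Ratios of other gene pairs were not computed, so how common such shifts are was not tested in any of the 3 comparisons. The spread within a group could still be wide. The log2 ratio of IFIT1 to IFIT2 ran from -1.72 to -0.63 among the STINGX+TGFb libraries, beside a mean difference from TGFb of -1.05.

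Between TGFb and control 3 of the 6 ratios changed, and these were the 3 that contain IFIT2. The log2 ratio of IFIT1 to IFIT2 was higher by 0.25, that of IFIT2 to IFIT3 fell by 0.23 and that of IFIT2 to IFIT5 fell by 0.19 (exact permutation test, adjusted p = 0.0343 for each). The ratios among IFIT1, IFIT3 and IFIT5 differed by 0.02 to 0.06 on the log2 scale, with groups that overlapped and adjusted p-values of 0.45 to 0.686 (exact permutation test).

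The response of the family was read beside a list of 56 other interferon-stimulated genes, of which 54 were tested. In STINGX+TGFb against TGFb 48 of the 54 fell and 1 rose, where 13.8% and 13.7% of all genes did. The list's median log2 fold change was -1.24. Of these 54 genes, 4 had a lower log2 fold change than IFIT1, 13 than IFIT3 and 44 than IFIT5. The gene that rose was IFI16, a DNA-binding member of the HIN-200 family, at 125.0 ± 3.27 CPM with STINGX+TGFb and 99.9 ± 2.88 CPM with TGFb (log2 fold change 0.32 ± 0.04). The largest falls were those of CXCL10, an interferon-induced chemokine, at 0.0872 ± 0.107 and 4.27 ± 0.687 CPM in the same order (log2 fold change -5.64 ± 0.45), and of RSAD2, which codes for the antiviral enzyme viperin. RSAD2 had a count of 0 over the 4 STINGX+TGFb libraries and 208 over the 4 TGFb libraries, which makes it at least 86.2-fold lower if the empty group is set at 3 counts in all. The list's median did not move with RSAD2 set at that bound.

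**Figure D4:**
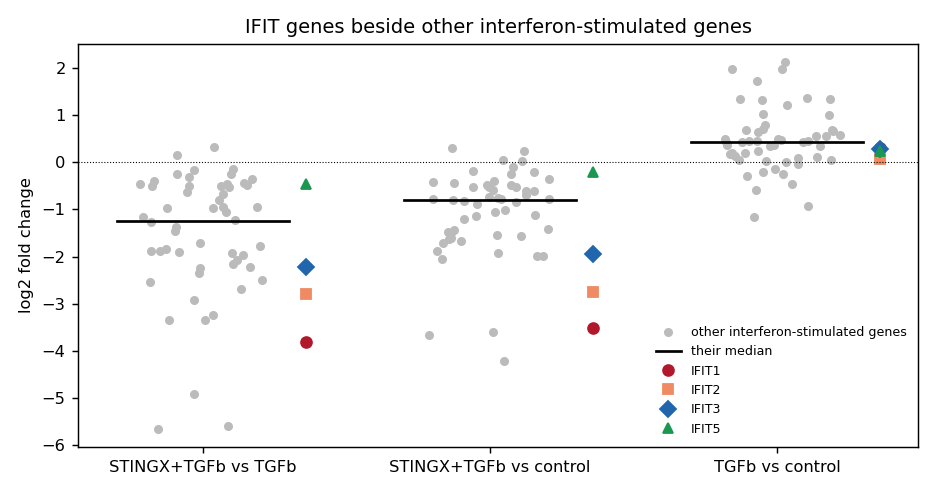
Log2 fold change of the IFIT genes (coloured symbols) and of other interferon-stimulated genes that were tested (grey points, with RSAD2 not drawn because its STINGX+TGFb libraries are at 0) in the 3 comparisons, with a black line at the median of the list. IFIT1, IFIT2 and IFIT3 lie below the line in both comparisons of STINGX+TGFb and IFIT5 above it, and all 4 lie below it in TGFb against control.

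With TGFb alone, set against control, 32 of the 54 listed genes rose and 5 fell, where 13.2% and 12.8% of all genes did, and the list's median was 0.44. Each IFIT gene changed by less than that median. The largest rises were those of IFI44L, a gene of the IFI44 family, at 34.2 ± 2.20 CPM with TGFb and 7.88 ± 1.58 CPM in control (log2 fold change 2.12 ± 0.12), and of CXCL11, a chemokine of the same receptor as CXCL10 (1.98 ± 0.26). IFITM2, a membrane protein that restricts viral entry, fell by 1.16 and IFI16 by 0.93 on the log2 scale. Between STINGX+TGFb and control 48 of the 54 fell and 2 rose, where 17.0% and 17.2% of all genes did. The largest fall of a gene with counts in both groups was that of OASL, an OAS-like protein without synthetase activity (log2 fold change -4.20 ± 0.18), and the rises were those of the helicase-like gene DDX60L (0.30 ± 0.08) and of PNPT1, a mitochondrial RNA exonuclease (0.24 ± 0.05).

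Of the 46 listed genes with a RefSeq promoter 26 (56.5%) held at least 1 ISRE core match, against 3.71% of the 27305 genes with a promoter. The members with a promoter all held 2 or more, IFIT5 included. Whether such matches go with the size of a fall was not tested.

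Upstream of the family, transcripts of the interferons themselves were scarce. Of 21 interferon ligand genes only IFNE, an interferon of epithelia, was tested, at 3.37 ± 0.407 CPM with STINGX+TGFb, 3.31 ± 0.482 CPM with TGFb and 1.42 ± 0.337 CPM in control. IFNE rose in TGFb against control (log2 fold change 1.22 ± 0.19) and had a log2 fold change of 0.02 in STINGX+TGFb against TGFb, which did not pass the test. IFNB1 had summed counts of 0 with STINGX+TGFb, 8 with TGFb and 15 in control. IFNA1 had 26, 15 and 6 and IFNA8 had 16, 0 and 8 in the same order. All of these were too few for a test and show no common direction.

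Among 18 interferon receptor, JAK, STAT, IRF and SOCS genes, 2 rose and 5 fell in STINGX+TGFb against TGFb, where 13.7% and 13.8% of all genes did. IRF7, an interferon-induced amplifier of interferon transcription, was at 11.8 ± 0.798 CPM with STINGX+TGFb and 23.0 ± 1.81 CPM with TGFb (log2 fold change -0.96 ± 0.08), and the rises were those of the kinase JAK2 (0.54 ± 0.08) and of SOCS3, a feedback inhibitor of JAK signalling (0.46 ± 0.05). STAT2 and IRF9, which take part in ISGF3, were looked up for that role after their values were seen. STAT2 had a log2 fold change of 0.06 ± 0.10 and IRF9 one of -0.56 ± 0.24, with edgeR adjusted p-values of 0.700 and 0.107. The STAT2 groups overlapped. Every STINGX+TGFb library of IRF9 was below every TGFb library, at 23.3 ± 4.64 and 34.4 ± 5.04 CPM. These 2 genes are not all of ISGF3, and the transcripts of the complex as a whole are not described here. With TGFb against control 3 of the 18 rose, among them IRF7 (0.67 ± 0.08), and 4 fell, led by SOCS1, an inhibitor of JAK kinases (-1.71 ± 0.22), and SOCS3 (-0.58 ± 0.05), where 13.2% of all genes rose and 12.8% fell. With STINGX+TGFb against control 2 rose, IFNGR1 (0.69 ± 0.20), a chain of the interferon gamma receptor, and JAK2 (0.58 ± 0.08), and 6 fell, led by SOCS1 (-2.06 ± 0.22) and IRF1 (-1.10 ± 0.05), where 17.2% of all genes rose and 17.0% fell.

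Among 11 genes from nucleic acid sensors to IRF3, 1 rose and 2 fell in STINGX+TGFb against TGFb, counts near the 13.7% and 13.8% of all genes that did. STING1, the adaptor of cytosolic DNA sensing, was at 48.4 ± 0.678 CPM with STINGX+TGFb and 82.1 ± 4.14 CPM with TGFb (log2 fold change -0.76 ± 0.09). IKBKE, a kinase of IRF3, fell by 0.25, and MAVS, the adaptor of RNA sensing, rose, at 323.0 ± 4.17 CPM with STINGX+TGFb and 228.6 ± 59.3 CPM with TGFb (0.50 ± 0.16). Between TGFb and control STING1 (0.37 ± 0.09) and the DNA sensor CGAS (0.38 ± 0.07) rose and IKBKE fell by 0.61, where 13.2% of all genes rose and 12.8% fell. Between STINGX+TGFb and control CGAS (0.42 ± 0.07) and TICAM1, the adaptor of TLR3 (0.22 ± 0.06), rose, and 3 fell, led by the exonuclease TREX1 (-0.90 ± 0.30, with groups that overlapped) and IKBKE (-0.86 ± 0.05), where 17.2% of all genes rose and 17.0% fell.

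Genes that make or bind the messenger RNA cap, the structure that IFIT1 inspects, numbered 10, of which 1 rose and 3 fell in STINGX+TGFb against TGFb, where 13.7% and 13.8% of all genes did. CMTR1, which adds the first ribose methyl group that shields a cap from IFIT1, was at 113.7 ± 1.56 CPM with STINGX+TGFb and 145.2 ± 4.62 CPM with TGFb (log2 fold change -0.35 ± 0.04). CMTR2, which methylates the next nucleotide, stood at 34.4 ± 2.75 and 26.1 ± 1.59 CPM (0.40 ± 0.07), and the cap-binding initiation factor EIF4E fell by 0.45. In TGFb against control EIF4E (0.38 ± 0.07) and the nuclear cap-binding subunit NCBP1 (0.25 ± 0.04) rose, and in STINGX+TGFb against control CMTR2 (0.46 ± 0.07) and the capping enzyme RNGTT (0.23 ± 0.07) rose and CMTR1 fell by 0.34. Of all genes 13.2% rose and 12.8% fell in the first of these comparisons, and 17.2% rose and 17.0% fell in the second. RNMT, the cap guanine methyltransferase, named after its values were seen, varied widely within groups, at 123.7 ± 56.3 CPM with STINGX+TGFb, 167.6 ± 4.38 CPM with TGFb and 68.3 ± 59.0 CPM in control, and did not pass the test in any comparison.

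Genes with the profile most like that of the family were ranked among 13642 genes by the root mean square difference of centred log2(CPM + 0.5) over the 12 libraries. The 6 nearest to the mean of the members were FBLN2 (0.154), EPSTI1 (0.171), IFITM1 (0.172), ISG20 (0.232), CEACAM1 (0.233) and DDX60 (0.235). FBLN2, an extracellular matrix fibulin, averaged 65.2 ± 0.971 CPM with STINGX+TGFb, 286.3 ± 4.17 CPM with TGFb and 210.7 ± 18.4 CPM in control. It was also the gene nearest to IFIT3 (0.125), ahead of EPSTI1 (0.146) and IFITM1 (0.170). The nearest to IFIT1 were OASL (0.371) and the chemokines CCL2 (0.443) and CCL5 (0.503), and the nearest to IFIT2 were CCL2 (0.146), CEACAM1 (0.371) and IFITM1 (0.402). IFIT5 was nearest to RCC2 (0.0715), FUBP1 (0.0750) and MED14 (0.0768), none of which is on the list of interferon-stimulated genes. Profiles were centred but not scaled, so these differences also reflect how much each gene changes. Whether nearness goes with shared regulation was not tested. Between members the difference was 0.308 for IFIT2 and IFIT3, 0.444 for IFIT1 and IFIT2 and 0.677 for IFIT1 and IFIT3, and it was 0.821, 1.11 and 1.48 between IFIT5 and IFIT3, IFIT2 and IFIT1.

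At the transcript level the authors' estimates divided IFIT2 among 3 transcripts, IFIT1 and IFIT3 among 2 each, and gave IFIT5 1. The share of IFIT2 counts given to ENST00000371826, a form of 2 exons, was 77.4, 96.4, 78.2 and 57.0% in the STINGX+TGFb libraries, against 3.12, 2.55, 0.727 and 2.78% in the TGFb libraries and 5.48, 3.38, 2.38 and 2.79% in the control libraries. The share given to ENST00000611722, a form of 3 exons, was 17.3, 0, 15.7 and 23.0% with STINGX+TGFb, against 88.5, 87.7, 94.9 and 94.3% with TGFb and 87.9, 74.8, 90.5 and 86.7% in control. The main form of IFIT2 thus differed between STINGX+TGFb and both other groups, without overlap in any library. All 3038 exonic bases of ENST00000611722 lie within ENST00000371826, where they make up 87.1% of its 3489 bases in GENCODE 29, so the division of reads between them is uncertain. Exon numbers and shared bases of all forms are those of GENCODE 29. That release starts IFIT3 at 89327894 where the deposited gene starts at 89327997, so the forms estimated by the authors may have other exons.

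Of the 8 member transcripts 7 were tested, and 4 changed in STINGX+TGFb against TGFb, where 2.40% of 79677 transcripts did. Lower were ENST00000611722, with a log2 fold change of -5.53 ± 0.75 (edgeR adjusted p = 0.00253), IFIT1 ENST00000371804 with -3.86 ± 0.20 (1.54e-06) and IFIT3 ENST00000371818 with -1.997 ± 0.21 (0.000342). ENST00000371826 of IFIT2 was higher with STINGX+TGFb, by 2.30 ± 0.48 (edgeR adjusted p = 0.0331), while IFIT2 as a gene fell. That call was lost without STINGX+TGFb library 1, 2 or 3, without any of the 4 TGFb libraries and without control library 2, with log2 fold changes of 1.997 to 2.48, and with no filter on low counts (2.29, adjusted p = 0.0584). ENST00000638108 of IFIT2, at -2.47 ± 0.61 (edgeR adjusted p = 0.0703), passed the threshold without control library 2 (-2.49, adjusted p = 0.0477). IFIT5 has 1 transcript, whose log2 fold change of -0.41 ± 0.12 had an adjusted p of 0.111 over all transcripts. In TGFb against control 0 of 7 changed in the edgeR test, 0 at an unadjusted p under 0.05, where 2.33% of all transcripts changed. Against control, 4 of 7 changed with STINGX+TGFb, where 3.45% did. Their log2 fold changes were -5.44 ± 0.75 for ENST00000611722, -3.32 ± 0.62 for ENST00000638108 of IFIT2, -3.61 ± 0.19 for IFIT1 ENST00000371804 and -1.88 ± 0.20 for IFIT3 ENST00000371818. The call of ENST00000638108 was lost without STINGX+TGFb library 1, 2 or 3 (log2 fold change from -3.22 to -3.09), and ENST00000371826 passed the threshold without TGFb library 3 (1.70, adjusted p = 0.0422).

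IFIT3 was divided between ENST00000371818, which begins near the upstream start, and ENST00000371811, which begins near the downstream one. The downstream form took 0.541, 7.63, 14.2 and 0.191% of IFIT3 counts with STINGX+TGFb, against 0.288, 0.404, 34.7 and 35.04% with TGFb and 40.2, 0.320, 0.252 and 0.0240% in control. Libraries of 1 group thus differed by more than the groups did, and the forms share 2311 exonic bases, 94.1% of the downstream form and 92.6% of the upstream form. The downstream form did not pass the test in any comparison.

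**Figure D5:**
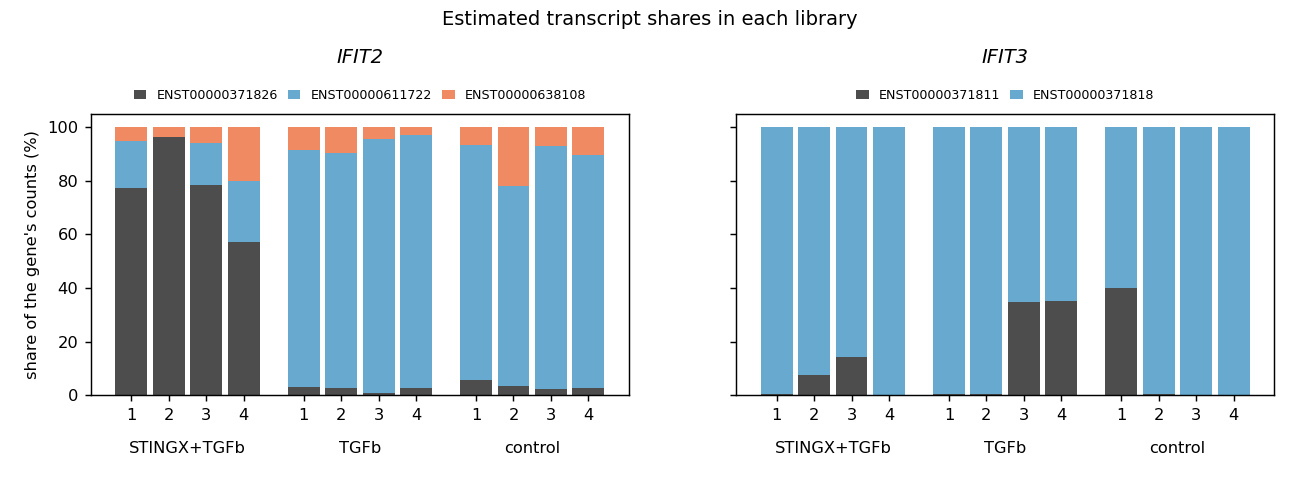
Share of the counts of IFIT2 (left) and IFIT3 (right) that the authors' estimates gave to each transcript, in percent, with 1 bar per library numbered within its group. In IFIT2 the dark form holds 57.0 to 96.4% with STINGX+TGFb and 0.727 to 5.48% in the TGFb and control libraries, and in IFIT3 the dark form reaches 34.7 and 35.04% in 2 TGFb libraries and 40.2% in 1 control library.

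The surroundings of the family were examined for reads that could belong to other genes. LIPA, the lysosomal acid lipase gene, lies on the opposite strand at chr10:89213569-89414557 and spans IFIT2, IFIT3 and IFIT1 but not IFIT5, and use of strand in the authors' counting is not given in the sources used here. LIPA averaged 51.8 ± 9.74 CPM with STINGX+TGFb, 59.2 ± 2.48 CPM with TGFb and 82.4 ± 3.20 CPM in control. Its log2 fold change was -0.19 ± 0.11 in STINGX+TGFb against TGFb (edgeR adjusted p = 0.233) and -0.48 ± 0.11 in TGFb against control (0.00614). In STINGX+TGFb against control LIPA fell by 0.67 ± 0.11 (edgeR adjusted p = 0.000446), as did the IFIT genes, and its part in their counts was not tested. The long noncoding gene AL353751 overlaps IFIT2 on the same strand and averaged 0.685 ± 0.265, 0.307 ± 0.208 and 0.599 ± 0.459 CPM in the STINGX+TGFb, TGFb and control groups. IFIT1B, a related gene between IFIT3 and IFIT1, had summed counts of 0, 17 and 32 in the same groups and was not tested, and the pseudogene IFIT6P had 0, 0 and 12. The pseudogene IFIT1P1 on chromosome 13 averaged 0.196, 0.0988 and 0.0986 CPM and did not pass the test in any comparison. Reads shared between IFIT1 and such close copies could be divided either way, so their values are uncertain.

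Of 9 neighbours of the locus 8 were tested, and in STINGX+TGFb against TGFb 1 rose and 2 fell, where 13.7% and 13.8% of all genes did, with a median log2 fold change of -0.19. ACTA2, the smooth muscle actin used as a marker of activated stellate cells, was at 15.7 ± 1.07 CPM with STINGX+TGFb and 45.0 ± 2.27 CPM with TGFb (log2 fold change -1.52 ± 0.07). KIF20B, a mitotic kinesin, fell by 0.55, and the monocarboxylate transporter gene SLC16A12 had a log2 fold change of 3.52 ± 0.61 from levels under 1 CPM. In TGFb against control ACTA2 rose (0.52 ± 0.07) and 4 fell, led by CH25H, the cholesterol hydroxylase (-3.44 ± 0.50), and the death receptor FAS (-0.98 ± 0.21), where 13.2% of all genes rose and 12.8% fell. CH25H was low throughout, at 1.14 ± 0.356 CPM in control, 0.106 ± 0.0448 CPM with TGFb and 0.0917 ± 0.108 CPM with STINGX+TGFb. In STINGX+TGFb against control SLC16A12 rose (1.47 ± 0.42) and 6 fell, led by CH25H (-3.63 ± 0.48) and ACTA2 (-0.996 ± 0.07), where 17.2% of all genes rose and 17.0% fell. The list's medians were -0.62 in TGFb against control and -0.75 in STINGX+TGFb against control, where those of the 4 IFIT genes were 0.27 and -2.34.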

How the data were processed

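Polyadenylated RNA of 12 LX2 libraries was sequenced with a stranded kit, per the labels' protocols, and the submitters' processing notes name cutadapt, HISAT2, StringTie, edgeR and GRCh38. Their versions and parameters, the annotation release and use of strand were not given. The authors deposited estimated counts, as whole numbers, and FPKM for 60612 genes and 229420 transcripts, and a count of 0 was listed as an FPKM of 0.0001.

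From the counts, edgeR's quasi-likelihood test (edgeR 4.0.16, R 4.3.3, limma 3.58.1) was fitted to all 12 libraries with TMM scaling and filterByExpr (minimum count 10, minimum total 15), leaving 21328 genes and 79677 transcripts. P-values were adjusted by Benjamini-Hochberg over all features, and calls used an adjusted p under 0.05. The fit had 9 residual degrees of freedom. The SE of a log2 fold change was derived from this fit of 12 libraries. It is the absolute log2 fold change divided by the square root of the test's F statistic. Fold changes have the first-named group on top. CPM was scaled by each library's total over the genes kept, times its TMM factor.

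The members and gene lists were chosen with earlier results of these data known. From each list the text names up to 2 genes per direction with the largest log2 fold change among those called, except for a gene that is not reported here. Profiles were compared among genes averaging at least 2 CPM. The labels do not say whether replicates are separate cultures, and the p-values then cover the spread among these 12 libraries alone, in part possibly technical. Fragments carry no molecular identifiers. Alternatives were DESeq2 1.42.0, limma-voom, other scalings, filters and FPKM pseudocounts, a replicate block and leaving out each library.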

Additional observations from a re-analysis of the deposited data

Results flagged for a closer look

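Of 45 groups of 4 libraries examined for a library far from the others, 4 stood out, and chance flags about 1 in 20 such groups. ENST00000638108 took 20.1% of IFIT2 counts in STINGX+TGFb library 4, and the next highest library of that group had 6.07%. IFIT1 was at 33.3 CPM in TGFb library 2, and the next highest TGFb library was at 30.4 CPM. ENST00000371818 took 59.8% of IFIT3 counts in control library 1, against 99.7% in the nearest control library, and ENST00000371811 took the remaining 40.2%, against 0.320% in the nearest control library. The IFIT3 shares are complementary, so their flags describe the same event, and the groups examined are not all independent.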

How the results depend on the processing

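Over 61 results and 919 alternative values, 865 kept their direction and side of the threshold and 9 reversed. The falls of IFIT1, IFIT2 and IFIT3 in both comparisons of STINGX+TGFb, and that of IFIT5 against TGFb, passed the test under every alternative run. In TGFb against control, IFIT1 passed under limma-voom (0.31) and with only the 2 groups compared (0.29), and leaving out 1 library gave 0.26 to 0.36. IFIT2 reversed under library size alone (-0.0048), log2(FPKM + 1) with and without the filter (-0.0037 in both) and log2(FPKM + 0.1) (-0.0044). IFIT5 lost its call under upper quartile scaling (0.21), library size alone (0.18), no filter (0.24), log2(FPKM + 1) with and without the filter (0.15 in both) and log2(FPKM + 0.1) (0.18), and leaving out 1 library gave 0.19 to 0.29. In STINGX+TGFb against control, IFIT5 lost its call under library size alone (-0.13), no filter (-0.21), log2(FPKM + 1) with and without the filter (-0.11 in both) and log2(FPKM + 0.1) (-0.13), and leaving out 1 library gave -0.25 to -0.18. IFIT3 ENST00000371811 reversed in STINGX+TGFb against control without control library 1, in a range of -3.85 to 2.88 over libraries left out. The log2 ratio of IFIT1 to IFIT3 reversed in TGFb against control without TGFb library 2 (-0.012), control library 3 (-0.0034) or control library 4 (-0.0063), in a range of -0.012 to 0.047. The cause was not tested in any of these.

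Same-numbered libraries of different groups correlated at -0.0068 to 0.0687 in their deviations, so the numbers were not taken as pairs. With the replicate block, IFIT5 lost its call in TGFb against control (0.25, adjusted p = 0.0559) and in STINGX+TGFb against control (-0.21, adjusted p = 0.0786), and IFIT3 ENST00000371811 reversed in STINGX+TGFb against control (0.34). The block also ended the calls of IFIT2 ENST00000371826 in STINGX+TGFb against TGFb (2.39, adjusted p = 0.0566) and of IFIT2 ENST00000638108 in STINGX+TGFb against control (-3.16, adjusted p = 0.0588). Ratio counts could not be given with a block or without a library, since 4 pairs cannot go below an exact p of 0.125 and 3 libraries against 4 cannot go below 0.0571. Depth limits IFIT1B, IFIT6P and most interferon ligands, whose counts were too low for a test.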
